A study of Mus musculus with 8 samples.

Results

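The 4 connexin genes known from blood vessels, Gja5, Gja4, Gjc1 and Gja1, were followed in microvessels isolated from mouse forebrain. Their members were all probes on the array whose accession maps to 1 of these genes, which gave 5 of 39429 probes, and 4 of the 21941 genes tested. The vessels came from mice 5 days old (P5), mice 10 days old (P10) and adult mice, whose age in days the labels do not give. No genotype, strain or treatment is stated for any age. The forebrain was homogenised with a Dounce homogeniser and separated by density and filtration, and particles under 70 µm were kept. Every two-colour array compared RNA of 2 ages directly, without a shared reference RNA. A replicate consisted of 4 arrays on its own slide, which held P5 with adult, P10 with adult, P10 with adult again with the dyes exchanged, and P5 with P10, and there were 2 replicates. The labels do not say whether the replicates came from separate animals or pools, so a p-value here reflects no more than the scatter between 2 preparations, possibly technical.

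Connexins are membrane proteins that assemble into hexameric channels, and channels of neighbouring cells dock to form gap junctions that pass ions and small molecules. In arteries they carry electrical signals and calcium signals along the endothelium and between endothelium and smooth muscle, which coordinates changes of vessel diameter. Gja5 (encoding Cx40) and Gja4 (Cx37) are the connexins of arterial endothelium, and smooth muscle can carry Cx37 as well. Gjc1 (Cx45) is known from vascular smooth muscle and mural cells and from the embryonic vessel wall. Gja1 (Cx43) is widely expressed, and in brain it is above all a connexin of astrocytes, whose endfeet surround the vessels.

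The sequences just upstream of the genes are shown because Gja5 and Gja4 moved together with age, and because the arterial transcription factors measured below have well known short motifs. Promoters were taken from RefSeq, build GRCm38.p6, as the 250 bases before the annotated start, 5′ to 3′ on the gene's strand. The table held 3 of the 4 genes, and Gjc1 is named only. Capitals mark matches, on either strand, to the SOX motif ACAAT, to the GC box GGGCGG bound by SP and KLF factors, to the box CACCC bound by KLF factors, to the RBPJ motif TGGGAA, to the GATA factor motif AGATAA, or to the TATA-like motif TATTTAA.
Gja5, chr3:97032152-97032401, plus strand: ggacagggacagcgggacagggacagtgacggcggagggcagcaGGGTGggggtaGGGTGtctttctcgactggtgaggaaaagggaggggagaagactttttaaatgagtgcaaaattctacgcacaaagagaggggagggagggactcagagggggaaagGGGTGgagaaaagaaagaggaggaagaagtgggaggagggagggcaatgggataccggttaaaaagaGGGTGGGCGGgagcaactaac
Gja4, chr4:127314040-127314289, minus strand: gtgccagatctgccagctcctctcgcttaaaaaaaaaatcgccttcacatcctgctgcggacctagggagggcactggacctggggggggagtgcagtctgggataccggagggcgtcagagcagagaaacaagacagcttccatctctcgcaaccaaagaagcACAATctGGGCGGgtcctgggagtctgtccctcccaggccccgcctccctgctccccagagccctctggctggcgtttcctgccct
Gja1, chr10:56377050-56377299, plus strand: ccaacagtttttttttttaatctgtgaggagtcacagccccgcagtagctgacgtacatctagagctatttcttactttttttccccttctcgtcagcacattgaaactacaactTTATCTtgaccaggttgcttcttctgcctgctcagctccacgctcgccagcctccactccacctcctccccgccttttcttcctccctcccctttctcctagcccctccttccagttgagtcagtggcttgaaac
The Gja5 window held 4 CACCC boxes, all read on the opposite strand as GGGTG, and a GC box at 17 to 12 bases before the start that shares 1 base with the nearest CACCC box. The Gja4 window held ACAAT at 86 to 82 bases and a GC box at 79 to 74 bases before the start. The Gja1 window held AGATAA, read on the opposite strand, at 135 to 130 bases. Among 32851 promoters of this length, CACCC was found in 52.0%, GGGCGG in 32.7%, ACAAT in 27.7%, TGGGAA in 21.6%, AGATAA in 9.99% and TATTTAA in 4.18%. These matches describe letters in a window and are not binding sites.

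The share of the 43020 spots other than controls that was well above background ran between 65.2% and 73.3% in the 16 channels. The number of arrays limits the precision. All 12 endothelial markers on the list used here, Cldn5, Pecam1 and Cdh5 among them, could be tested, as could 9 of 10 pericyte markers. Of the 5 connexin probes, 4 were well above background in all 16 channels. The lowest spot signal of these probes in any channel was 305.5 for Gja5, against a local background of 54 there. The Gja1 probe was printed in 10 spots, and the other probes in 1 spot each.

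The connexins divided by their course over the 3 ages. Relative to P5, all 4 genes were called higher at P10 (limma, Benjamini-Hochberg adjusted p below 0.05), in a comparison in which 18.2% of all genes tested were called higher, 23% lower and 41.2% in either direction. Relative to P10, Gja5 and Gja4 were called lower in the adult, where 8.42% of all genes were called lower, 9.1% higher and 17.5% in either direction, and Gjc1 and Gja1 were not called. Relative to P5, Gja5, Gja4 and Gjc1 were called higher in the adult, where 23% of all genes were called higher, 30.1% lower and 53.1% in either direction. The median log2 difference of the 4 genes was 1.70 for P10 against P5, -0.96 for adult against P10 and 0.90 for adult against P5. Over all genes tested these medians were -0.06, -0.01 and -0.09. Median centring in place of loess normalization gave larger increases relative to P5. At P10 they were then 3.83 for Gja5, 3.18 for Gja4, 1.47 for Gjc1 and 0.92 for Gja1 (log2), and in the adult 1.90, 1.41, 1.42 and 0.67 in the same order of genes, the last not called (adjusted p = 0.0610). With the background model fitted on all spots, including 11 with a faulty local background, no gene of the array was called for P10 against P5, although 7072 had an unadjusted p below 0.05 in limma. The 3 comparisons share their samples, so they are not independent of each other. The arrays measure bulk RNA, in which fewer cells of a type and less RNA per cell cannot be told apart.

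**Figure D1:**
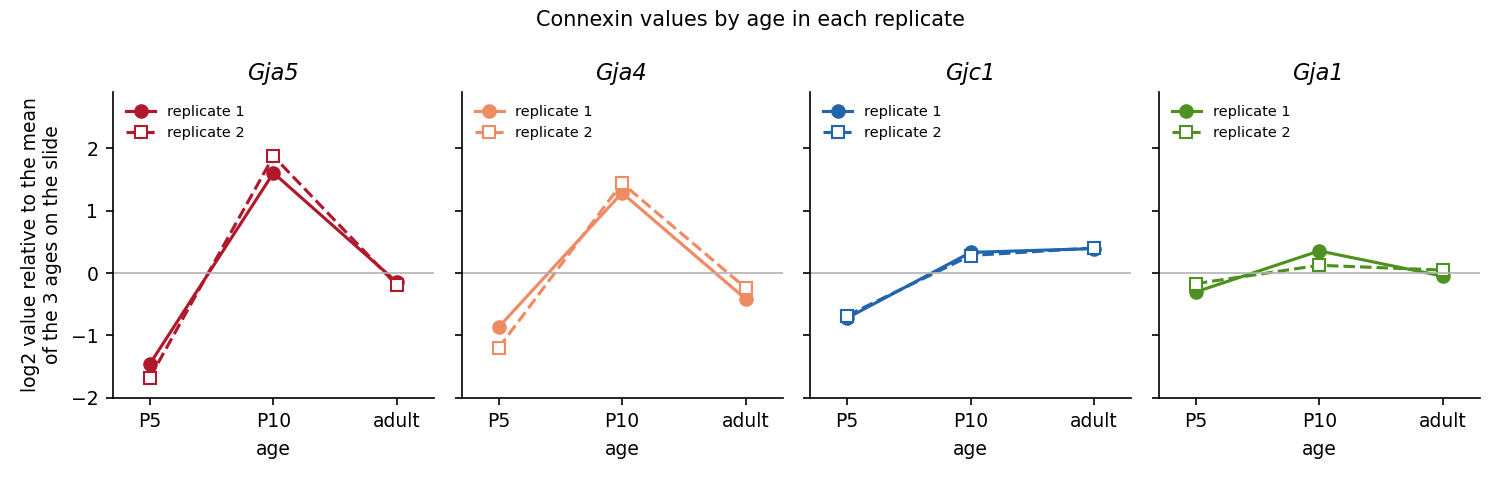
Values of the 4 connexin genes at P5, P10 and adult age in each replicate (log2, relative to the mean of the 3 ages on the same slide); each line joins the 3 ages of 1 replicate. Gja5 and Gja4 peaked at P10 in both replicates, Gjc1 was near the same value at P10 and in the adult, and Gja1 stayed between -0.30 and 0.35.

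Gja5 had the widest course. Relative to the mean of the 3 ages on the slide, its log2 values were -1.45 at P5, 1.60 at P10 and -0.15 in the adult in replicate 1. In replicate 2 they were -1.67 at P5, 1.87 at P10 and -0.20 in the adult. In both replicates P10 was highest, P5 lowest and the adult between them, and the share of all genes with such an order is not given here. On single arrays, the log2 ratio of P10 over P5 was 2.95 in replicate 1 and 3.28 in replicate 2. The log2 ratio of adult over P10 was -1.84 and -2.25 on the first arrays of replicates 1 and 2, and -1.71 and -2.07 on the arrays with exchanged dyes. Adult over P5 gave 1.28 in replicate 1 and 1.56 in replicate 2. All 6 arrays that held P10 RNA thus gave more Gja5 at P10 than at the other age. Beside adult RNA this was so with P10 in either dye. Beside P5 RNA, P10 was always labelled with Cy3. Fitted together, Gja5 rose at P10 relative to P5 by 3.30 ± 0.15 (log2 ± SE, n = 2 per age), a 9.86-fold difference (95% interval 7.60 to 12.8, adjusted p = 0.00399). This was the largest increase among the 21941 genes in this comparison. It was also the largest in 10 alternative settings of the processing and ranked between 2 and 5 in 4 others. The 10 are not separate checks. The log2 values of limma-trend are those of the main fit, and separate channels give the same values with and without the replicate block. Changes of the filter and the mean over kept probes left the Gja5 value as it was and could alter only the genes ranked beside it. In the adult Gja5 fell relative to P10, by 1.91 ± 0.15 on the log2 scale, which is 3.76-fold lower (adjusted p = 0.00371). It rose in the adult relative to P5 by 1.39 ± 0.15, or 2.62-fold (adjusted p = 0.00249). The adult level of Gja5 was therefore below P10 and above P5. With the background model fitted on all spots, no difference of Gja5 passed the threshold: 2.85 for P10 against P5 (adjusted p = 0.0662), -1.52 for adult against P10 (adjusted p = 0.105) and 1.33 for adult against P5 (adjusted p = 0.0504).

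Gja5 had a further probe, which did not pass the filter and gave no test. It was well above background in 5 of 6 P10 channels, in 0 of 4 P5 channels and in 0 of 6 adult channels. Its mean normalized signal was 1.14-fold higher at P10 than at P5, a ratio of values near background and not a lower bound. The mean was higher at P10 than at P5 in both replicates. Single channels overlapped, with 6.19 in a P10 channel and 6.26 in a P5 channel of replicate 1. Against the adult the replicates differed in sign, with normalized levels of 6.32 at P10 and 6.33 in the adult in replicate 1, and 6.41 at P10 and 6.25 in the adult in replicate 2.

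Gja4 followed the same order of ages. Its log2 values relative to the slide mean were -0.87 at P5, 1.28 at P10 and -0.41 in the adult in replicate 1. In replicate 2 they were -1.20 at P5, 1.44 at P10 and -0.24 in the adult. This order was the same in both replicates. On single arrays, P10 over P5 gave log2 ratios of 2.23 and 2.67 in replicates 1 and 2. Adult over P10 gave -1.58 and -1.59 on the first arrays and -1.88 and -1.89 on the arrays with exchanged dyes. Adult over P5 gave 0.67 in replicate 1 and 1.24 in replicate 2, the widest gap between replicates for this gene. In the fit, Gja4 rose at P10 relative to P5 by 2.40 ± 0.16 (log2 ± SE), or 5.27-fold (95% interval 3.96 to 7.02, adjusted p = 0.00399), the 13th largest increase of all genes tested. It fell in the adult relative to P10, by 1.69 ± 0.16 on the log2 scale or 3.22-fold (adjusted p = 0.00564). It rose in the adult relative to P5 by 0.71 ± 0.16, or 1.63-fold (adjusted p = 0.0187), and this value was 0.96 without replicate 1 and 0.45 without replicate 2. With the background model fitted on all spots, the fall kept its call, while the difference of P10 from P5 was 2.35 (adjusted p = 0.0532) and that of adult from P5 was 0.66 (adjusted p = 0.0548).

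**Figure D2:**
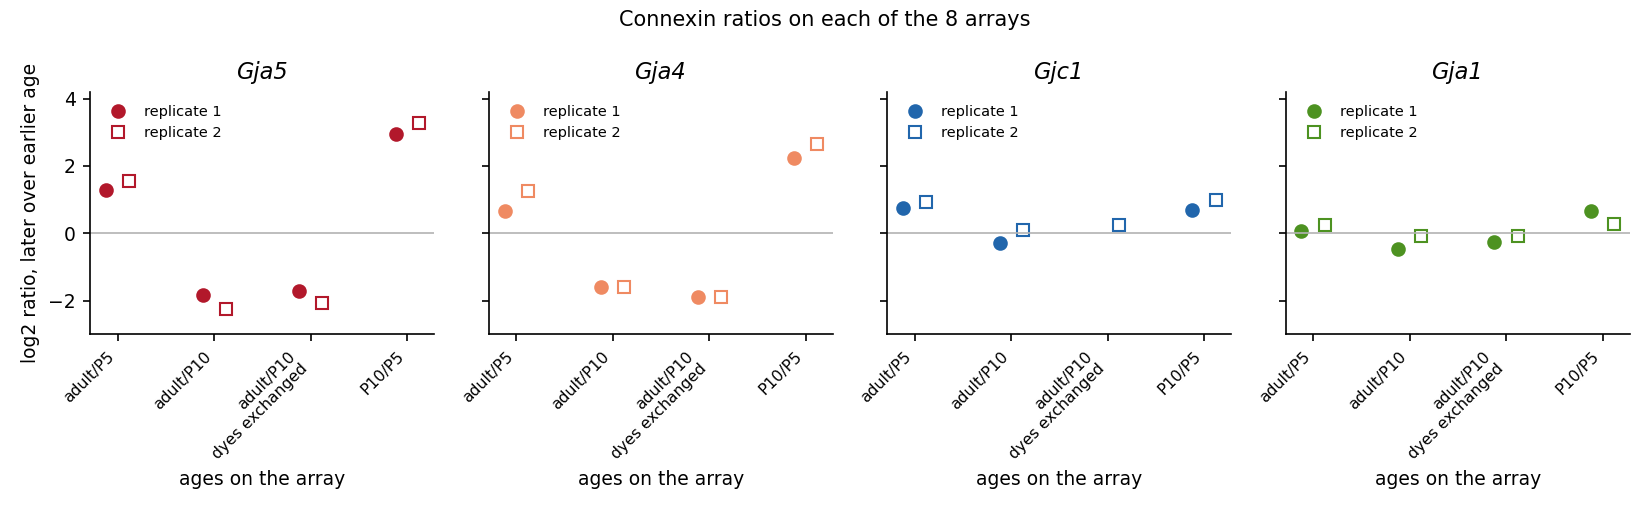
Log2 ratio of the later over the earlier age for each connexin on each of the 8 arrays, by the ages on the array; filled circles are replicate 1 and open squares replicate 2. For Gja5 and Gja4 all 4 arrays with adult and P10 RNA lie below -1.5, in both dye orientations, and the Gjc1 spot of 1 array was left out.

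The turn between the 2 age intervals was tested directly, as the difference of adult minus P10 less the difference of P10 minus P5, for which 6.16% of all genes were called below 0, 5.53% above 0 and 11.7% in either direction. For Gja5 this was -5.21 ± 0.25 (log2 ± SE, adjusted p = 0.00814), the second lowest value of all genes, with -4.81 in replicate 1 and -5.62 in replicate 2. For Gja4 it was -4.09 ± 0.28 (adjusted p = 0.00966), the 17th lowest, with -3.85 in replicate 1 and -4.32 in replicate 2. Gjc1 was also called below 0, at -0.92 ± 0.16 (adjusted p = 0.0353), and Gja1 was not, at -0.72 ± 0.22 (adjusted p = 0.0995). A value below 0 can also come from a rise with no later fall. For Gjc1 no fall was detected, with adult minus P10 at 0.09. With the background model fitted on all spots none of these 4 passed, at an adjusted p of 0.135 for Gja4, 0.211 for Gja5 and 0.333 for Gjc1, and no gene was called in either direction, although 3393 genes had an unadjusted p below 0.05 in limma.

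**Figure D3:**
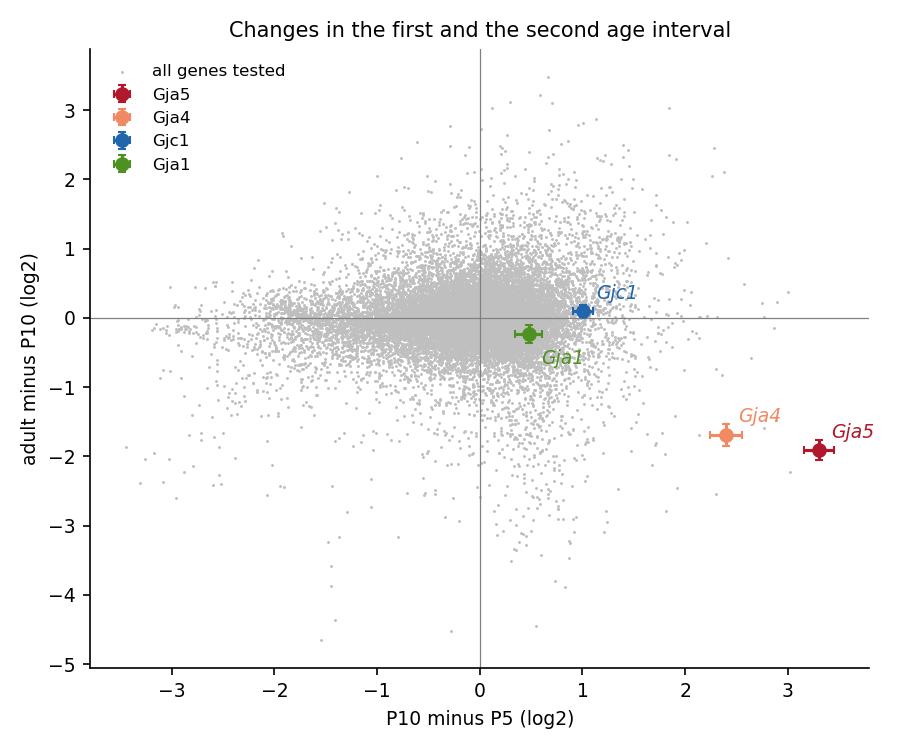
Log2 difference of P10 minus P5 (horizontal) against adult minus P10 (vertical) for all 21941 genes (grey) and the 4 connexins (coloured, with standard errors). Gja5 and Gja4 lie at the lower right, high at P10 relative to P5 and low in the adult relative to P10, and Gjc1 and Gja1 lie near the horizontal line at 0.

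Likeness of course was described by the root mean square difference of log2 values over 4 values, adult minus P5 and adult minus P10 in each replicate, among 15591 other genes with a symbol. The genes most like Gja5 were Dhh (0.291), the secreted ligand Desert hedgehog, Aoc3 (0.324), a vascular amine oxidase, and Fbln5 (0.488), an elastic fibre protein. Gja4 was closest to Fbln2 (0.229), another fibulin of the extracellular matrix, Dhh (0.360) and Dkk2 (0.381), a secreted modulator of Wnt signalling. Dhh was the only gene among the 3 nearest of both. Between Gja5 and Gja4 themselves the difference was 0.535, with 3 genes closer to Gja5 and 7 closer to Gja4. In Dhh, adult minus P10 was -1.58 in replicate 1 and -1.61 in replicate 2, and adult minus P5 was 1.10 and 1.24 in replicates 1 and 2. Fbln2 had -1.58 and -1.81 for adult minus P10, and 0.32 and 0.56 for adult minus P5.

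Gjc1 rose at P10 relative to P5, and no difference between adult and P10 was detected. Its log2 values relative to the slide mean were -0.72 at P5, 0.33 at P10 and 0.39 in the adult in replicate 1, and -0.68 at P5, 0.28 at P10 and 0.40 in the adult in replicate 2. P5 was below both later ages in each replicate, and P10 and adult lay close together. Single arrays gave log2 ratios of P10 over P5 of 0.70 and 0.98 in replicates 1 and 2, and of adult over P5 of 0.77 and 0.92. The adult over P10 ratio was -0.29 on the first array of replicate 1, and 0.10 and 0.24 on the first and the dye-exchanged array of replicate 2. The spot on the dye-exchanged array of replicate 1 was left out as an outlier, so this slide's Gjc1 values rest on 3 ratios for 3 terms. In the fit, Gjc1 rose at P10 relative to P5 by 1.01 ± 0.10 (log2 ± SE, adjusted p = 0.0054), which is 2.01-fold, and in the adult relative to P5 by 1.10 ± 0.10 (adjusted p = 0.00157), which is 2.14-fold. Adult against P10 differed by 0.09 ± 0.10 (95% interval -0.15 to 0.34, adjusted p = 0.599), and the sign of this difference was negative in 6 alternative settings, median centring in place of loess and the outlier spots kept among them. Without the replicate block, on separate channels, neither increase passed the threshold, at 1.31 for P10 against P5 (adjusted p = 0.0535) and 0.89 for adult against P5 (adjusted p = 0.110). With the background model fitted on all spots, the difference of P10 from P5 was 0.82 (adjusted p = 0.0925). The call of Gjc1 below 0 for the turn was lost in 9 alternative settings, in which the adjusted p ranged up to 0.333.

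Gja1 moved least of the 4. Its log2 values relative to the slide mean were -0.30 at P5, 0.35 at P10 and -0.05 in the adult in replicate 1, and -0.17 at P5, 0.12 at P10 and 0.05 in the adult in replicate 2. P10 was the highest and P5 the lowest age in both replicates, and the adult values of -0.05 and 0.05 lay between them. Single arrays gave log2 ratios of P10 over P5 of 0.65 and 0.29 in replicates 1 and 2. Adult over P10 gave -0.46 and -0.26 on the first and the dye-exchanged array of replicate 1, and -0.08 and -0.09 on those of replicate 2. Adult over P5 gave 0.06 in replicate 1 and 0.23 in replicate 2. The spots of this probe on 1 array spread by only 0.03 to 0.06 (SD of log2 ratios, 8 to 10 spots), so the gap between replicates was wider than the spread between spots. In the fit, Gja1 rose at P10 relative to P5 by 0.48 ± 0.13 (log2 ± SE), or 1.39-fold (adjusted p = 0.0401), against 0.29 without replicate 1 and 0.66 without replicate 2. This call was lost in 4 alternative settings: at 0.42 without the 2 arrays that held the faulty spots (adjusted p = 0.126), at 0.45 without the dye-exchanged arrays (adjusted p = 0.0552), at 0.52 on separate channels with no replicate block (adjusted p = 0.160) and at 0.44 with the background model fitted on all spots (adjusted p = 0.165). Adult against P10 was -0.24 ± 0.13 (95% interval -0.58 to 0.09, adjusted p = 0.287), and adult against P5 was 0.24 ± 0.13 (95% interval -0.10 to 0.57, adjusted p = 0.182). The genes most like Gja1 were Sap30 (root mean square difference 0.0255), Naa25 (0.0336) and Triqk (0.0351), and those most like Gjc1 were Arl1 (0.0675), Mtmr2 (0.069) and Birc3 (0.0724).

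Cell type markers moved with age in the same samples, and their part in the connexin differences was not tested. At P10 relative to P5, 12 of 12 endothelial markers, 8 of 9 pericyte markers and 6 of 8 smooth muscle markers were called higher and none lower, with median log2 differences of 1.24, 0.86 and 1.75. In the same comparison 5 of 5 erythroid markers (median -2.54) and 6 of 7 immature neuron markers (median -1.08) were called lower. Of all genes tested, 18.2% were called higher and 23% lower there. Gja5 lay above all 12 endothelial, all 9 pericyte and all 8 smooth muscle markers in this comparison. Gja4 lay above all endothelial and pericyte markers and above 6 of 8 smooth muscle markers, with Tagln (3.00 ± 0.25, adjusted p = 0.0047) and Myl9 (2.77 ± 0.18, adjusted p = 0.00399), both of the contractile apparatus, above it. Relative to the endothelial median, Gja5 was higher by 2.07 and Gja4 by 1.16 on the log2 scale at P10 against P5. Gjc1 differed from that median by -0.23, and Gja1 lay below all 12 endothelial markers.

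In the adult relative to P10 the vascular marker lists had positive medians, with single members as low as -0.26 among endothelial, -0.29 among pericyte and -0.40 among smooth muscle markers. Of the endothelial markers 3 of 12 were called higher and none lower (median 0.40), of the pericyte markers 3 of 9 higher and none lower (median 0.53), and of the smooth muscle markers 1 of 8 higher and none lower (median 0.08). None of these markers was lower at an unadjusted p below 0.05 in limma either. Of all genes tested, 9.1% were called higher and 8.42% lower in the adult relative to P10. The endothelial junction gene Cldn5 had 0.46 ± 0.11 (adjusted p = 0.0501), Pecam1 0.45 ± 0.12 (adjusted p = 0.0704) and Cdh5 0.08 ± 0.14 (adjusted p = 0.778). Gja5 and Gja4 lay below every marker of these 3 lists. Relative to the endothelial median Gja5 differed by -2.31, with -2.12 in replicate 1 and -2.49 in replicate 2. Gja4 differed from it by -2.09, with -2.06 in replicate 1 and -2.10 in replicate 2. Among fibroblast markers, 4 of 9 were called lower and 1 higher in the adult relative to P10 (median -0.54). Col1a1, a fibrillar collagen chain, had the lowest value of this list, at -2.40 ± 0.09 (adjusted p = 0.00182), below both connexins. Dcn and the matrix proteoglycan Lum were not called and differed in sign. Dcn had 0.66 ± 0.16 (adjusted p = 0.0551) and Lum -0.54 ± 0.19 (adjusted p = 0.129). In the adult relative to P10, 4 of 5 erythroid markers were called lower (median -2.26), and of the immature neuron markers 5 of 7 were called lower and 1 higher (median -0.99). At P10 relative to P5, 4 of 9 fibroblast markers were called higher and none lower (median 0.51), against 18.2% and 23% of all genes tested. Lum had 1.49 ± 0.19 (adjusted p = 0.00849) and Col1a1 0.64 ± 0.09 (adjusted p = 0.0108). Dcn was not called, at 0.51 ± 0.16 (adjusted p = 0.0611).

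For adult against P5, 12 of 12 endothelial, 8 of 9 pericyte and 6 of 8 smooth muscle markers were called higher and none lower, with medians of 1.69, 1.40 and 2.04. Of all genes tested, 23% were called higher and 30.1% lower for adult against P5. Relative to the endothelial median, Gja5 differed by -0.30 on the log2 scale, Gjc1 by -0.59 and Gja4 by -0.98. Gja1 lay below all 12 endothelial markers and within the astrocyte markers, with 5 of 10 on either side. Astrocyte markers had 4 of 10 called higher and 3 lower (median 0.37) in this comparison, and 6 higher and 1 lower with median centring (median 0.96). At P10 relative to P5, 2 of 10 were called higher and 3 lower (median 0.13), or 5 higher and 0 lower with median centring (median 0.75), and in the adult relative to P10, 3 higher and 1 lower (median 0.17). The endfoot water channel Aqp4 was called higher at P10 relative to P5, by 0.64 ± 0.10 (adjusted p = 0.0127). It was the 1 astrocyte marker called lower in the adult relative to P10, at -0.53 ± 0.10 (adjusted p = 0.0294). The values of the list ranged from -0.55 to 1.74 there. Gfap was not called in any comparison. Its values were 0.48 ± 0.27 for P10 against P5, 0.15 ± 0.27 for adult against P10 and 0.63 ± 0.27 for adult against P5. Slc1a3, an astrocyte glutamate transporter, was called lower at P10 relative to P5, at -0.59 ± 0.10 (adjusted p = 0.0148). In the adult relative to P10 Slc1a3 was not called, at 0.05 ± 0.10. Of 14 alternative settings, 2 lost the Aqp4 call for P10 against P5, 5 lost that for adult against P10, and 3 lost the Slc1a3 call, with a change of sign in 1.

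**Figure D4:**
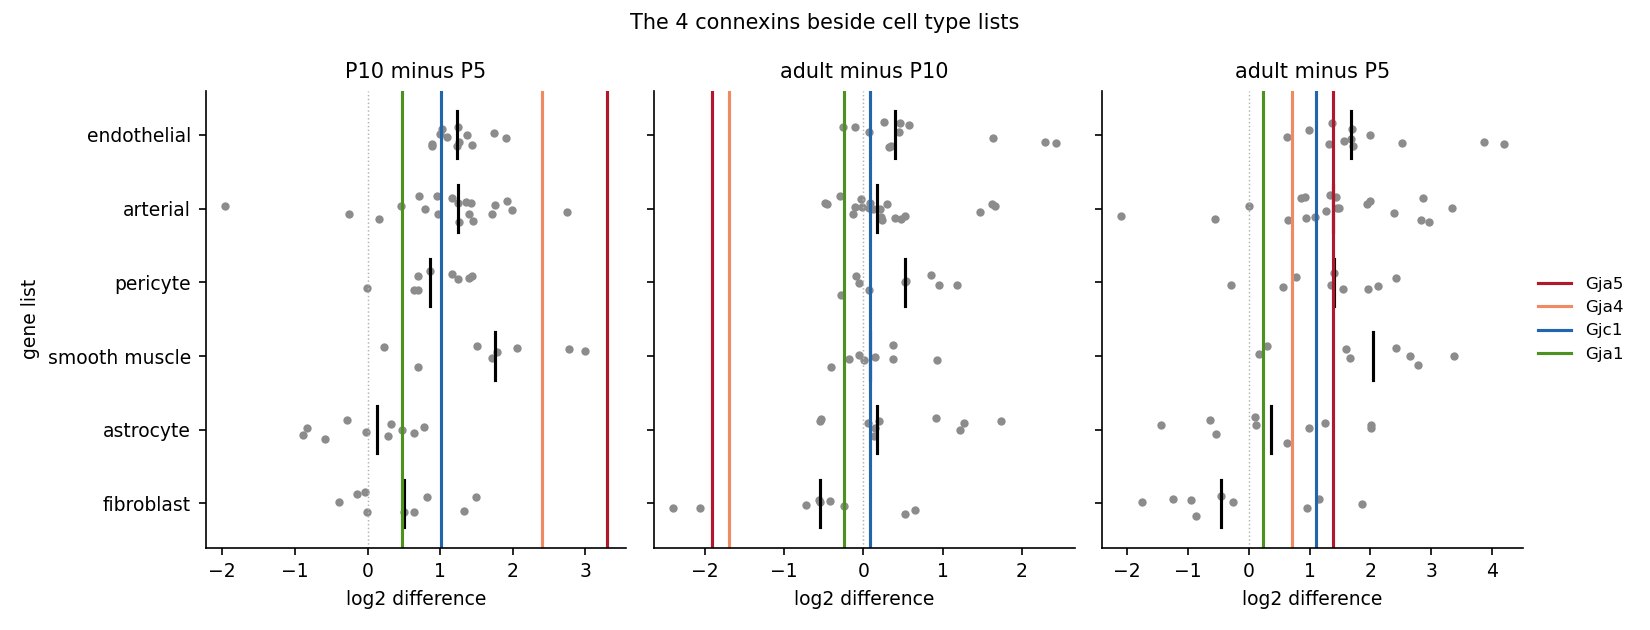
Log2 differences of the markers of 5 cell types and of the arterial list (grey points, 1 per gene; black bars are list medians) in the 3 comparisons, with the 4 connexins as vertical lines. Gja5 and Gja4 lie to the right of every endothelial marker for P10 minus P5 and to the left of every endothelial marker for adult minus P10.

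The list of arterial genes, which holds 20 arterial identity genes and regulators of arterial connexins, was measured in full. At P10 relative to P5, 17 of 20 were called higher and 1 lower (median 1.25). The largest increases were those of Gkn3, an arterial endothelial gene of mouse brain, at 2.75 ± 0.21 (adjusted p = 0.00422), and of Sox17, a transcription factor of arterial fate, at 1.99 ± 0.11 (adjusted p = 0.00399). Notch1, a receptor of the arterial pathway, was called lower at -1.96 ± 0.44 (adjusted p = 0.0246), with -2.36 in replicate 1 and -1.57 in replicate 2. This call was lost in 4 of 14 alternative settings, the mean over all kept probes of a gene among them. Over the alternative settings the Notch1 value ranged from -2.03 to -0.60. In the adult relative to P10, 4 of 20 were called higher and 0 lower (median 0.17), a count of 0 in limma that was the same in each alternative setting. At an unadjusted p below 0.05, 2 were lower, Jag1 and Efnb2, both arterial ligands. The increases were led by Acvrl1, a BMP receptor of endothelium, at 1.66 ± 0.09 (adjusted p = 0.00225), followed by the flow-responsive factors Klf2 at 1.63 ± 0.14 (adjusted p = 0.00492) and Klf4 at 1.47 ± 0.10 (adjusted p = 0.00297). The lowest value was -0.48 ± 0.14 (adjusted p = 0.0814), that of the Notch ligand Jag1. Gja5 at -1.91 and Gja4 at -1.69 thus lay below all 20 genes of this list, whose range was -0.48 to 1.66. For adult against P5, 17 of 20 were called higher and 2 lower (median 1.39), with Klf2 at 3.35 ± 0.14, Gkn3 at 2.96 ± 0.21 and Klf4 at 2.87 ± 0.10 the highest (adjusted p from 0.000521 to 0.00103). All genes had 18.2% higher and 23% lower calls for P10 against P5, 9.1% and 8.42% for adult against P10, and 23% and 30.1% for adult against P5. For the turn, 9 of 20 arterial, 5 of 12 endothelial, 1 of 9 pericyte and 4 of 8 smooth muscle genes were called below 0, against 6.16% of all genes. Called above 0 were 1 endothelial gene and none of the other 3 lists.

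Genes whose proteins bind, traffic, phosphorylate or degrade connexins held calls in both directions. Of 13 measured, 4 were called higher and 3 lower at P10 relative to P5 (median -0.02), 2 higher and 2 lower in the adult relative to P10 (median 0.11), and 5 higher and 3 lower in the adult relative to P5 (median 0.19). Over all genes tested, 18.2% were called higher and 23% lower at P10 relative to P5. These shares were 9.1% and 8.42% for adult against P10, and 23% and 30.1% for adult against P5. With median centring the counts for P10 against P5 were 5 higher and 0 lower (median 0.60). Tjp1, the scaffold ZO-1 that binds the tails of several connexins, rose at P10 relative to P5 by 1.12 ± 0.09 (adjusted p = 0.0046) and in the adult relative to P5 by 1.56 ± 0.09 (adjusted p = 0.000842). Cav1, the caveolae protein, rose at P10 relative to P5 by 1.12 ± 0.24 (adjusted p = 0.0218). Dbn1, the actin-binding protein drebrin, was lower in all 3 comparisons, at -0.99 ± 0.11 for P10 against P5 (adjusted p = 0.00655), -0.61 ± 0.11 for adult against P10 (adjusted p = 0.0254) and -1.60 ± 0.11 for adult against P5 (adjusted p = 0.000991). Cdh2, or N-cadherin, fell in the adult relative to P10, at -1.02 ± 0.09 (adjusted p = 0.00535), and relative to P5, at -1.56 ± 0.09 (adjusted p = 0.000841). Ubqln4, known to help degrade Cx43, was 0.46 ± 0.10 higher in the adult than at P10 (adjusted p = 0.0409). The calls for adult against P10 were lost in 6 of 14 alternative settings for Dbn1, in 5 for Ubqln4 and in 1 for Cdh2. Those for P10 against P5 were lost in 3 settings for Dbn1 and in 1 each for Tjp1 and Cav1, and the adult against P5 calls of Tjp1, Dbn1 and Cdh2 held in all 14.

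The other connexins moved in both directions. Of 12 followed here 7 passed the filter, and Gja10, Gjb5, Gjd3, Gjd4 and Gje1 did not. Over all genes tested, 41.2% were called in either direction for P10 against P5, 17.5% for adult against P10 and 53.1% for adult against P5. At P10 relative to P5, 3 of these 7 other connexins were called lower and 0 higher in limma (median -0.13), and 0 were higher at an unadjusted p below 0.05. Among the 5 whose probe was well above background at all 3 ages, 2 were called lower and 0 higher there (median -0.07). With median centring 2 were called higher there, Gjb2 (0.79, adjusted p = 0.0169) and Gjb6 (0.90, adjusted p = 0.0124), and 2 lower, and separate channels with the replicate block gave 1 higher and 3 lower. In the adult relative to P10, 2 were called higher and 1 lower (median 0.13), and in the adult relative to P5, 2 higher and 4 lower (median -0.45). Among the 5 whose probe was well above background at all 3 ages, the adult against P5 counts were 2 higher and 2 lower (median 0.31), and with median centring all 7 gave 3 higher and 3 lower (median -0.06). Gja3, a connexin known from the lens, had the largest differences, at -2.29 ± 0.30 for P10 against P5 (adjusted p = 0.00853) and -3.42 ± 0.30 for adult against P5 (adjusted p = 0.00157). Gja6 was well above background in 100% of P5 channels, 50% of P10 channels and 66.7% of adult channels. Gjd2, the connexin of neuronal gap junctions, was so in 100% of P5, 100% of P10 and 50% of adult channels. Both passed the filter through the ages at which they were high, so their lower calls, for Gja6 at P10 and in the adult and for Gjd2 in the adult, each against P5, had to fall this way and are given without a value.

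Of the connexins known from oligodendrocytes, Gjc3 and Gjb1 rose in the adult relative to P10. Gjc3 had 1.33 ± 0.10 for adult against P10 (adjusted p = 0.00347) and -0.07 ± 0.10 for P10 against P5 (adjusted p = 0.574). Gjb1 was lower at P10 than at P5, at -0.64 ± 0.12 (adjusted p = 0.0176), a call lost in 4 of 14 alternative settings, with -0.31 under median centring, and higher in the adult than at P10, at 0.95 ± 0.12 (adjusted p = 0.011). In the same samples 7 of 9 oligodendrocyte markers were called higher in the adult relative to P10 and none lower (median 1.33), and the part of such cells in these values was not tested. Of all genes tested, 9.1% were called higher and 8.42% lower there.

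Gjb6, which astrocytes carry beside Gja1, was higher in the adult than at P5 by 0.76 ± 0.22 (adjusted p = 0.0355). Gjb2, known from meningeal cells and astrocytes, fell in the adult relative to P10, at -0.84 ± 0.15 (adjusted p = 0.0242), and relative to P5, at -0.57 ± 0.15 (adjusted p = 0.0283), a difference of -0.06 with median centring, in which Gjb2 was called both higher at P10 than at P5 and lower in the adult than at P10 (-0.85, adjusted p = 0.0431). Pannexins form channels related in shape to those of connexins, and Panx1 fell in each comparison, at -1.01 ± 0.09 for P10 against P5 (adjusted p = 0.00526), -1.18 ± 0.09 for adult against P10 (adjusted p = 0.00403) and -2.18 ± 0.09 for adult against P5 (adjusted p = 0.000521). Of 14 alternative settings 3 lost the first of these calls, with -0.46 under median centring, 2 lost the second and none the third. Panx2, on its brighter probe, was higher in the adult than at P5 by 0.43 ± 0.12 (adjusted p = 0.0347), a call lost in 7 of 14 alternative settings. Its dimmer probe had 0.30 ± 0.14 and was not called (limma over all kept probes, adjusted p = 0.127). Panx3 did not pass the filter. The calls for Gja6, Gjb2, Gjb6, Gjd2 and Panx2 were each lost in 1 or more of the alternative settings. Among the other connexins, Gjb2 had the lowest value for the turn between the age intervals, at -1.12, against -5.21 for Gja5 and -4.09 for Gja4.

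**Figure D5:**
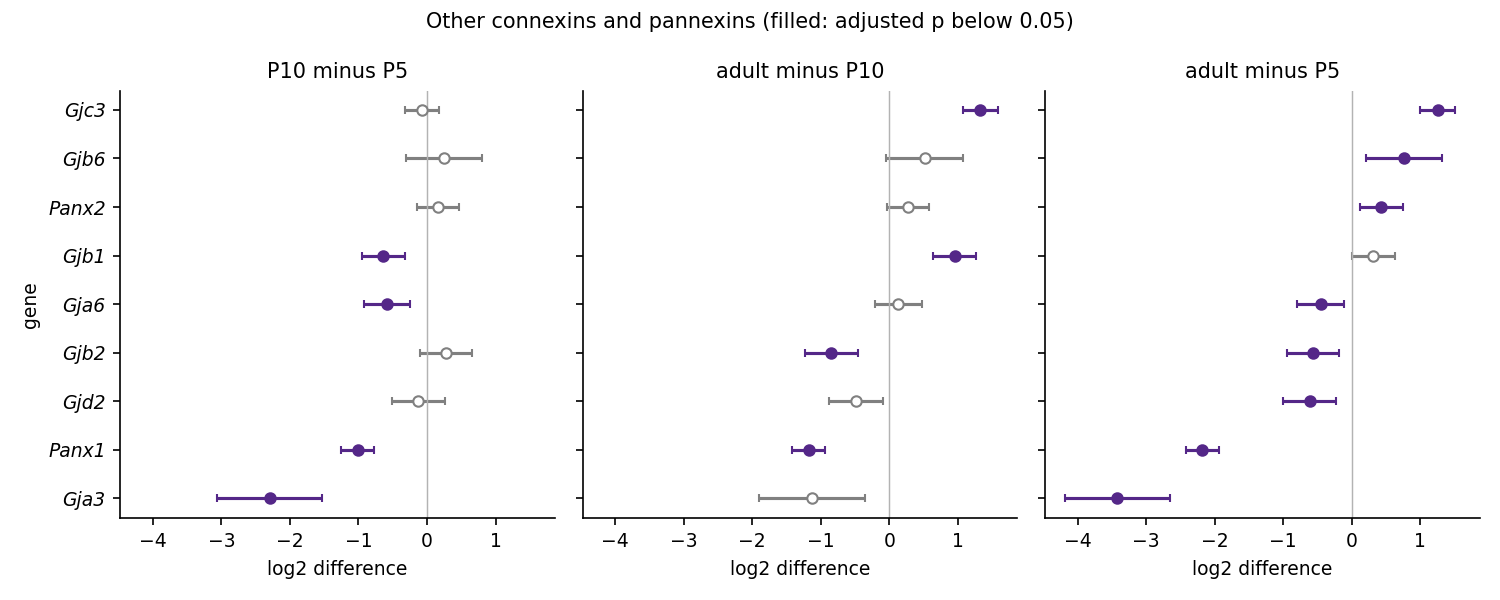
Log2 differences with 95% intervals for 7 other connexins and 2 pannexins that passed the filter, in the 3 comparisons; filled points have an adjusted p below 0.05. For P10 minus P5 no connexin in this plot is called higher, while with median centring Gjb2 and Gjb6 were. The lower calls of Gja6 and Gjd2 had to fall this way, since both passed the filter through the ages at which they were high.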

How the data were processed

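The 8 Agilent arrays each held microvessel RNA (100 ng) of 2 ages, labelled with Cy5 and Cy3. The deposited files are Feature Extraction output, version 10.5.1.1 per the file headers and 12.6 per the submitters' processing notes. The deposited median and background signals are intensity values, and the deposited log10 values are ratios of Cy5 over Cy3, per the file headers. These served only to check directions, and the deposited processed signals, also intensity values, served an alternative.

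In R 4.3.3 with limma 3.58.1, median signals were corrected by normexp (offset 50) and normalized by loess (span 0.3). On 2 arrays, 11 spots whose signal lay more than 100 below background were given the array's median background, then left out, as were outlier spots; this was chosen with results known, and the fit on all spots is an alternative. A probe was kept if, for 1 age or more, all channels were well above background. The brightest probe stood for a gene, named through RefSeq accessions. Each slide's 4 ratios gave 1 value per age and replicate, with a dye term. limma fitted age and replicate (2 residual, 2.91 prior degrees of freedom), adjusted by Benjamini-Hochberg over 21941 genes, and was tested on simulated data. Replicate equals slide, so single-replicate values are within-batch values. Same-numbered samples deviated together (r of 0.461 to 0.694 over 27161 probes), and the block is part of the fit.

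The 4 genes, the gene lists and the alternatives were chosen with earlier results of these data known. Named genes were the 4 members, every other connexin and pannexin that passed the filter (some connexins are not reported here), per comparison the 3 called partner and arterial genes with the largest difference, the first 3 markers of each list used, and the 3 nearest genes of each member. Myl9, Jag1 and Efnb2 were named after their values were seen. Marker lists of further cells gave, for adult against P5, 5 of 5 erythroid genes lower, 5 of 7 immature neuron genes lower, 3 of 5 mature neuron genes higher, 2 of 6 microglia genes lower and 7 of 9 oligodendrocyte genes higher. Of all genes tested, 23% were called higher and 30.1% lower in this comparison.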

Additional observations from a re-analysis of the deposited data

How the results depend on the processing

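The choice of spots for the background model moved the results most. With the background model fitted on all spots, 2616 genes were called higher and 2776 lower for adult against P5, 154 and 103 for adult against P10, and 0 and 0 both for P10 against P5 and for the turn, although limma gave 7072 and 3393 genes an unadjusted p below 0.05 in these 2. The connexin values there kept their direction but not their calls: for P10 against P5 Gja5 2.85, Gja4 2.35, Gjc1 0.82 and Gja1 0.44; for adult against P5 Gja5 1.33 and Gja4 0.66; for adult against P10 Gja5 -1.52; and for the turn Gja5 -4.36, Gja4 -4.05 and Gjc1 -0.67. All other genes called for P10 against P5 lost their calls in this setting too. With separate channels and no replicate block, calls were 994 higher and 843 lower for adult against P10, 2356 and 2987 for P10 against P5, and 334 above and 470 below 0 for the turn, and Gja1 (0.52) and Gjc1 (1.31) for P10 against P5, Gjc1 (0.89) for adult against P5 and the Gjc1 turn (-1.72) were no longer called. Separate channels with the replicate block gave that Gjc1 turn of -1.72 as well, not called. Without the 2 arrays with faulty background there were 1033 higher and 852 lower calls for adult against P10, 2306 and 3305 for P10 against P5, and 504 above and 614 below 0 for the turn, with Gja1 at 0.42 for P10 against P5 and the Gjc1 turn at -0.82, both not called. Median centring in place of loess gave 613 and 666 calls for adult against P10 and 199 and 707 for the turn, and the deposited processed signals 506 and 885 for the turn. Median centring also moved the median of all genes to 0.12 for P10 against P5 and to 0.07 for adult against P5, against -0.06 and -0.09 with loess. The Gjc1 turn was not called with median centring (-1.53), processed signals (-1.09), without the dye-exchanged arrays (-0.94), and in the settings added after seeing the data, outlier spots kept (-0.94) and no dye term (-0.88). Gja1 for P10 against P5 was 0.45 without the dye-exchanged arrays. The small difference of Gjc1 between adult and P10 turned negative with median centring (-0.0541), without the dye-exchanged arrays (-0.0638), on separate channels with and without the replicate block (-0.42 each), with outlier spots kept (-0.0130) and with no dye term (-0.0245). The cause of these shifts was not tested, and fewer arrays remained in the settings that left arrays out. Of the values of the 4 members tested under an alternative, 195 kept their direction and side of the threshold, 23 kept the direction and lost the call, and 6 changed sign. Leaving out either replicate leaves 1 slide and no test, and every difference of the 4 members kept its sign. This did not hold for every other connexin, with Gjb6 for P10 against P5 at -0.16 in replicate 1 and 0.65 in replicate 2.

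Among the other connexins, each call for Gja3, Gjc3, Gjb1 in the adult against P10 and Panx1 in the adult against P5 held in each setting other than the background fit on all spots; Gjb1 for P10 against P5 was not called in 4 of 14 settings and Panx1 in 3, with median centring (-0.31 and -0.46) among them, and Panx1 for adult against P10 in 2. Depth on these arrays is signal over background, and 5 of the other connexins and 1 pannexin were too dim to test. With 2 replicates per age, differences near the Gja1 values were at the limit of detection.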
